A study of Mus musculus with 30 samples.

Results

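The genes described here encode proteins of the synaptic vesicle and of the SNARE machinery, measured in mouse hippocampus at 6 postnatal ages in 2 genotypes. Probe sets with 1 gene symbol were taken where that symbol began with Syt, Stx, Vamp, Sv2, Rab3, Cplx or Syngr, or was one of Syp, Syn1, Syn2, Syn3, Snap25, Snap91, Nsf, Napa, Napb, Napg, Rph3a, Dnm1, Amph, Unc13a, Bsn and Pclo. This rule took 74 of the 10833 probe sets with 1 symbol, for 57 of 8251 genes, 16 of them with several probe sets. By its letters it also took relatives that work elsewhere in the cell: the SNARE-binding genes Stxbp2 and Stxbp3, Sytl4, the small GTPase genes Rab31, Rab33a, Rab33b, Rab34 and Rab35, and Rab3il1 and Rab3ip, whose products act on Rab proteins. Of 36 well-known genes of the machinery, 26 had a probe set; genes such as Syn1, Sv2a, Sv2b, Sv2c, Rab3c, Napg, Rph3a, Amph and Unc13a were not analysed here.

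Synaptic vesicles store transmitter in the nerve terminal and release it when calcium enters. Release needs a vesicle SNARE of the Vamp family to zip together with the target SNAREs syntaxin and Snap25 on the plasma membrane; synaptotagmins sense calcium, complexins hold the assembled SNAREs, and Nsf with its SNAP adaptors takes the used complex apart. Rab3 proteins and the scaffolds piccolo and bassoon bring vesicles to the release site, and dynamin and its partners take membrane back. In the rodent hippocampus, synapses form and mature during the first postnatal weeks.

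Each of the 30 samples was total RNA from a pool of the hippocampi of 2 male pups of 1 genotype, born to C57BL/6 mice crossed with Nf1 heterozygotes, on 1 Affymetrix MG-U74Av2 array. Pups heterozygous for Nf1 (Het) gave 15 samples, and wild-type pups (WT) of the same cross also gave 15. Ages are written as P and the day after birth. There were 4 Het pools against 3 WT pools at P10, 4 against 4 at P15, 2 against 2 at each of P18, P20 and P28, and 1 against 2 at P32. Pools are named here by the number and letter in their titles, whose meaning the labels do not give. All P18, P28 and P32 pools and the Het P20 pools have number 1, and the WT P20 pools have number 2. The labels do not give litters, so p-values measure the spread between pools.

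Array medians lay between 50.0 and 59.1 intensity units after the authors' scaling. Nf1 had 1 dim probe set, at 6.68 ± 4.31 in Het samples and 7.36 ± 4.92 in WT samples (SD, n = 15 each), too dim to check the genotypes. All 9 measured neuron markers and all 7 of hippocampal principal cells were tested and none was below 1 in every sample of any group. The pools of the Het P18 group correlated at 0.944 across probe sets, against at least 0.953 in the other groups of several pools. Het P18 pool 1b also had the highest log2 ratio of the 3′ over the 5′ Gapdh control probe set, 0.48, against −0.05 in Het P18 pool 1a and −0.26 and −0.23 in the WT P18 pools. This ratio is a sign of how complete the labelled RNA was. Counts for the steps to and from P18 and for genotype at P18 are therefore also given without pool 1b.

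Of the 74 probe sets, 56, for 46 genes, were bright enough to be tested, and 18 lay among the lowest 40% of all probe sets. The dim ones measured Bsn, Rab35, Stx3, Syngr4, Syt6, Syt7, Syt8, Syt9, Syt10, Sytl4 and Vamp5, and second probe sets of Rab3a, Syt2, Vamp1 and Vamp7. Levels are not compared between probe sets, since each binds with its own strength. A probe set was called where its limma p, adjusted over all 7453 tested probe sets, was below 0.05. Age over all groups was called for 31 of the 56 members (55.4%), against 50.8% of all tested probe sets, and for 40 without Het P18 pool 1b. Where a pool was left out, here and below, the members' count alone is given. A count changed in this way is not shown to be particular to the members. The plot of group means shows that the members did not share 1 course.

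**Figure D1:**
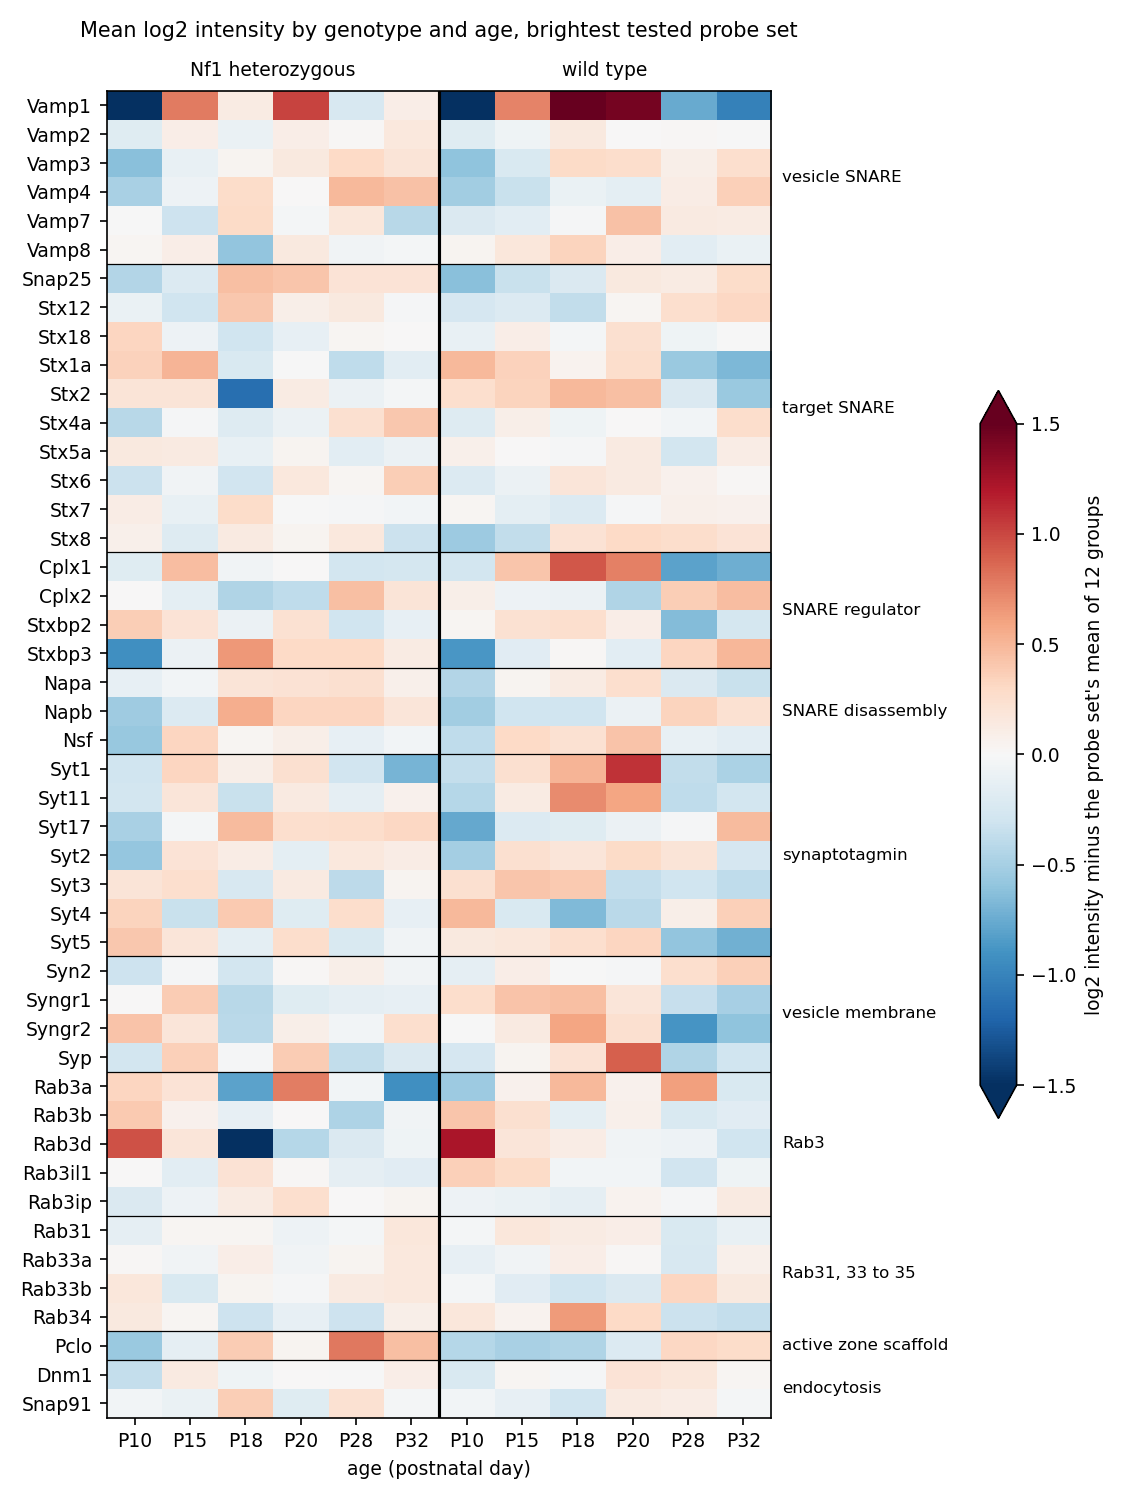
Mean log2 intensity of 46 genes (rows, grouped by role) in Het (left) and WT (right) groups at each age, as the difference from each probe set's mean over the 12 groups. Vamp1, Cplx1, Syp and Syt1 were highest between P15 and P20, Snap25, Vamp4 and Pclo were higher late than at P10, and Rab3d was highest at P10.

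Maturation was taken as the late level, averaged over P28 and P32 with equal weight, less the level at P10. In Het hippocampus 24 of 56 members were called (42.9%), 16 higher and 8 lower, where all tested probe sets gave 36.5%, with 17% higher and 19.5% lower. In WT hippocampus 25 were called (44.6%), 16 higher and 9 lower, against 38.2% of all, with 18% higher and 20.1% lower. The members' median log2 change was −0.02 in Het and 0.09 in WT, beside −0.06 and −0.04 over all tested probe sets. Both genotypes had 16 calls in common, all of the same sign, which is 66.7% of the Het calls and 64% of the WT calls. Across all 56 members, 47 had the same sign in both genotypes. The matching shares over all tested probe sets were not computed, so this likeness is not shown to be particular to the members. The Het contrast rests on a single P32 pool. Of the genes shown pool by pool, RefSeq (GRCm38.p6) places Vamp4 at chr1:162570515-162599082, Snap25 at chr2:136713439-136782428, Stx1a at chr5:135023482-135051100, Stxbp3 at chr3:108793180-108840502, Napb at chr2:148693985-148732425, Rab3d at chr9:21907491-21918199 and Pclo at chr5:14514906-14863465, the whole gene in each case.

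Among vesicle SNAREs, Vamp4 and Vamp3 rose in both genotypes. Vamp4, which acts at the trans-Golgi network and in bulk membrane retrieval, had intensities of 431, 434 and 416 in the Het P28 and P32 pools, against 231, 228, 215 and 202 at Het P10. In WT pools it had 315, 349, 366 and 421 at P28 and P32, against 236, 216 and 194 at P10. Late and P10 values did not overlap in either genotype. The log2 change was 0.95 ± 0.11 (SE) in Het and 0.75 ± 0.11 in WT, with limma adjusted p-values of 6.62e-07 and 9.42e-06, and a second Vamp4 probe set gave 0.99 and 0.75. Vamp3, the widely expressed cellubrevin, rose by 0.87 ± 0.19 in Het and 0.77 ± 0.18 in WT.

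Vamp1, a synaptobrevin used most in brainstem and spinal cord, was dim, and passed the brightness filter only through its levels from P15 to P20. Its steps to and from those ages are given as a description. It had 24.5, 39.9 and 39.4 in the Het P28 and P32 pools, against 20.8, 5.13, 15.7 and 8.51 at Het P10. WT pools had 20.6, 23.1, 13.5 and 24.6 at P28 and P32, against 5.29, 6.81 and 18.6 at P10. The Het values did not overlap and the WT values did. Its log2 rise was 1.68 ± 0.44 in Het (limma adjusted p = 0.0041) and 1.19 ± 0.43 in WT (adjusted p = 0.0304). With 32 added before the log they were 0.61 in Het and 0.32 in WT (adjusted p = 0.157, not called). The WT call also ended without WT P10 pool 1b or 2a, WT P28 pool 1a or 1b, or WT P32 pool 1b (0.83 to 1.23). The other Vamp1 probe set was not tested.

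Vamp2, the main vesicle SNARE of forebrain synapses, gave different results on its 2 tested probe sets. The brighter changed by 0.27 in Het (called) and 0.19 in WT (adjusted p = 0.147). The dimmer changed by −0.54 in Het (adjusted p = 0.152) and fell by 0.82 in WT (adjusted p = 0.0237), so no single direction can be given for the gene. The Het call of the brighter one ended without any single Het P28 or P32 pool or Het P10 pool 1a, 1b or 2b (0.20 to 0.29), and the WT call of the dimmer one without WT P10 pool 2a or 2b, WT P28 pool 1a or WT P32 pool 1a (−0.85 to −0.61).

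The target SNAREs Snap25 and Stx1a, partners at the plasma membrane, went in opposite directions. Snap25 had 3614, 3553 and 3591 in the Het P28 and P32 pools, against 2375, 2154, 2212 and 2437 at Het P10. In WT, values were 3443, 3348, 4142 and 3404 at P28 and P32, against 1876, 1976 and 2188 at P10. Every late value was above every P10 value of its genotype. The log2 rise was 0.65 ± 0.14 in Het and 0.83 ± 0.13 in WT (limma adjusted p = 6.31e-04 and 2.66e-05).

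Stx1a, the syntaxin that pairs with Snap25 in release, had 279, 356 and 368 in the Het P28 and P32 pools, against 472, 532, 556 and 540 at Het P10. In WT pools it had 266, 295, 240 and 278 at P28 and P32, against 530, 581 and 624 at P10. The late values were all lower than those at P10 in both genotypes. Its log2 change was −0.62 ± 0.21 in Het and −1.10 ± 0.20 in WT (limma adjusted p = 0.0217 and 1.38e-04). The Het call ended without Het P28 pool 1a (−0.53, adjusted p = 0.0824).

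Of the other syntaxins, which serve the plasma membrane and inner compartments, Stx4a (0.73) and Stx6 (0.52) rose in Het, and the endosomal Stx8 (0.77) and Stx12 (0.54) rose in WT. Stx4a was also called in WT without WT P32 pool 1b (0.38). For Stx8, Het P10 pools had 51.4, 36.3, 40.9 and 50.5, against 30.8, 28.4 and 27.4 in WT P10 pools. Each Het P10 value lay above each WT P10 value. All WT P10 values of Stx8 (30.76, 28.39 and 27.38) lay below the filter's cut of 30.85, so its WT rise starts from dim values. The difference in maturation, Het minus WT, was −0.94 ± 0.25 for Stx8 (95% interval −1.45 to −0.43, limma adjusted p = 0.383). Stx12 (−0.38) and Rab3a (−1.54) followed by p, and neither passed. No member was called for this difference by limma (0 of 56, and 0% of all probe sets); 6 had an unadjusted p below 0.05. Different calls in the 2 genotypes, such as that of Stx8, are thus not shown to differ.

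**Figure D2:**
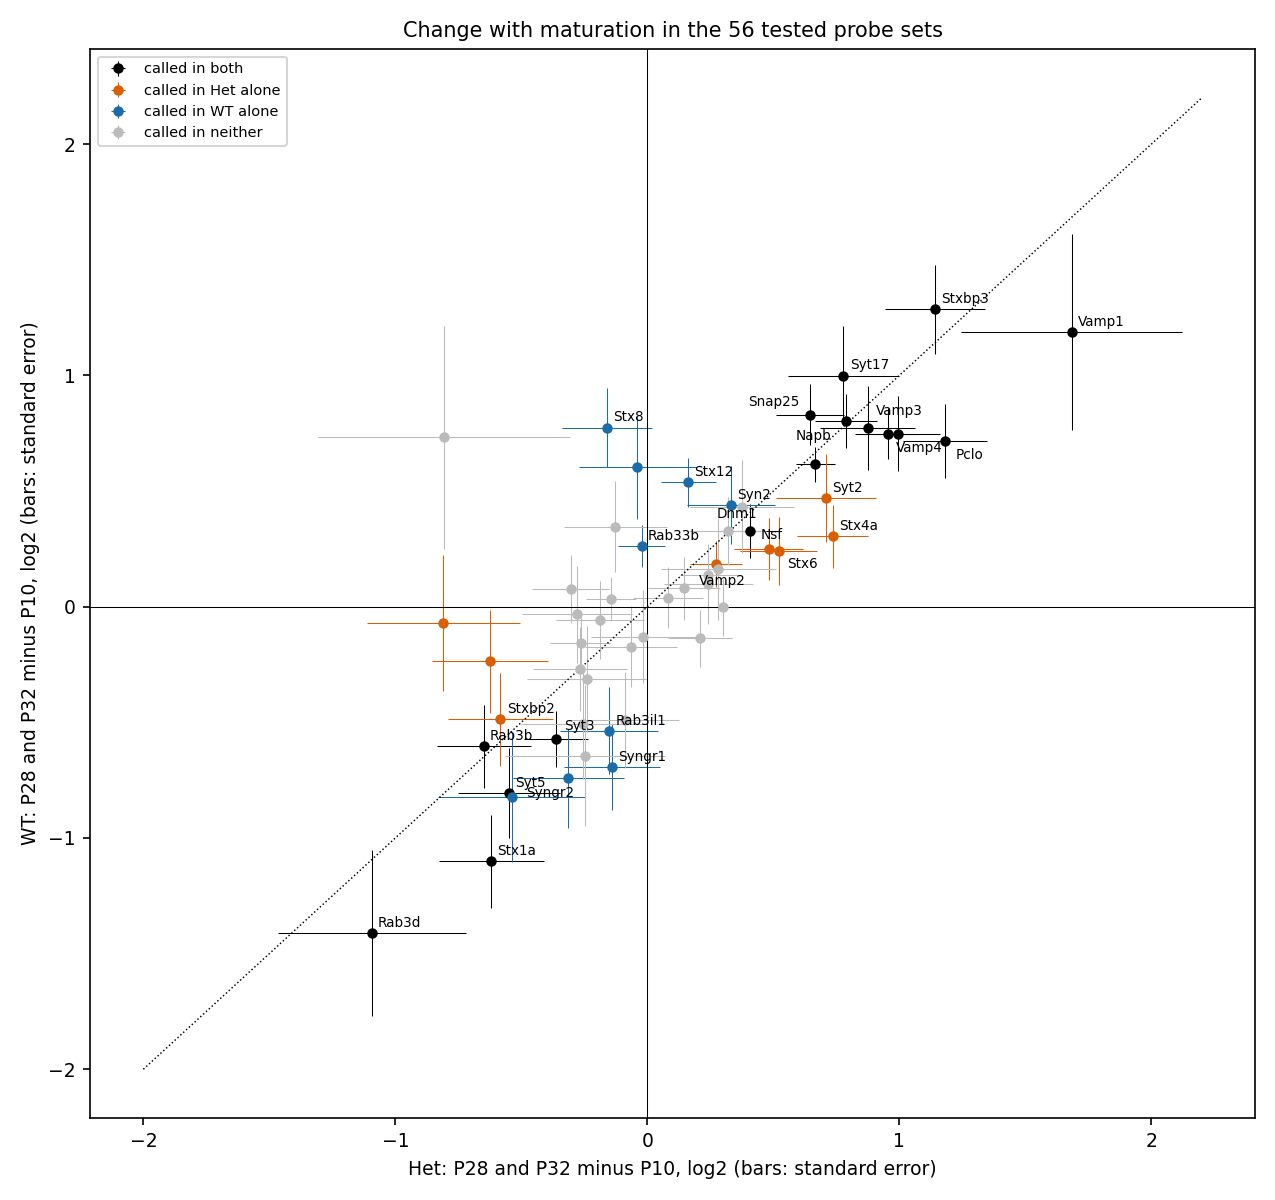
Log2 change from P10 to P28 and P32 in Het (horizontal) and WT (vertical) for the 56 tested probe sets, with standard errors and colour by call. Stxbp3, Vamp1 and Pclo lie at the upper right and Rab3d and Stx1a at the lower left. Of the 56, 47 have the same sign in both genotypes, and the share over all probe sets was not computed.

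Among SNARE regulators, Stxbp3, which binds Stx4, had the largest rise of a WT member. It had 155, 108 and 115 in the Het P28 and P32 pools, against 39.0, 67.8, 61.5 and 57.3 at Het P10. The WT pools showed 133, 129, 138 and 158 at P28 and P32, against 47.8, 67.1 and 58.2 at P10. No late value was as low as any P10 value. The log2 rise was 1.14 ± 0.20 in Het and 1.28 ± 0.19 in WT (limma adjusted p = 1e-04 and 1.46e-05). Stxbp2 fell in Het by 0.58 and 0.81 on its 2 probe sets. Both of these calls ended without single Het pools, with values of −0.57 to −0.53 on the brighter, without P10 pool 1a or 2b or P28 pool 1b, and −0.82 to −0.70 on the dimmer, without P10 pool 1b, 2a or 2b or any P28 or P32 pool. Cplx1 and Cplx2, the complexins, were not called: Cplx1 changed by −0.09 in Het and −0.49 in WT (adjusted p = 0.775 and 0.0636) and Cplx2 by 0.32 in Het and 0.33 in WT (adjusted p = 0.102 and 0.0803). Single pools decided this for both in WT. Cplx1 was called without WT P10 pool 1b (−0.67) or WT P32 pool 1b (−0.72) and, at −0.49, without either pool of Het P18 or Het P28, and Cplx2, at 0.33, without either Het P20 pool. In Het, Cplx2 was called without the P32 pool (0.44).

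The disassembly genes rose or were not called. Napb, the brain form of the SNAP adaptor, had 804, 729 and 689 in the Het P28 and P32 pools, against 455, 401, 438 and 393 at Het P10. In WT pools it had 743, 794, 741 and 693 at P28 and P32, against 462, 383 and 434 at P10. The groups did not overlap. The log2 rise was 0.79 ± 0.12 in Het and 0.80 ± 0.12 in WT (limma adjusted p = 2.58e-05 and 1.13e-05). Its dimmer second probe set changed by −0.04 in Het (adjusted p = 0.91) and rose by 0.60 in WT. That WT call ended without WT P10 pool 2a or 2b, WT P28 pool 1a or 1b or WT P32 pool 1a (0.50 to 0.63). Nsf, the ATPase of disassembly, rose in Het (0.48 ± 0.14).

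Of 7 tested synaptotagmin genes, Syt17 rose in both genotypes, by 0.78 ± 0.22 in Het and 0.999 ± 0.21 in WT. Syt2, a fast calcium sensor, rose by 0.71 ± 0.20 in Het, and in WT its change was 0.47 (adjusted p = 0.0539). The WT change was called without WT P10 pool 1b (0.58) and, at 0.47, without Het P15 pool 1c or 2d or Het P20 pool 1a or 1b. Syt5 and Syt3 fell in both genotypes, Syt5 by 0.55 in Het and 0.81 in WT and Syt3 by 0.36 in Het and 0.57 in WT. The Het falls were not called without Het P28 pool 1a (Syt5 −0.41, Syt3 −0.29); for Syt5 the same held without Het P10 pool 1b, 2a or 2b (−0.54 to −0.52) and for Syt3 without Het P10 pool 1a (−0.28). Syt1, the main calcium sensor of hippocampal release, changed by −0.19 in Het (adjusted p = 0.418) and −0.06 in WT (adjusted p = 0.804). Without the single Het P32 pool the Het value was 0.02.

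Of 4 genes for proteins on the vesicle membrane, 2 fell, 1 rose and 1 was not called in WT. Syngr1 and Syngr2, the synaptogyrins, fell by 0.69 ± 0.19 and 0.74 ± 0.21, and Syn2, a synapsin that tethers vesicles to actin, rose by 0.44 ± 0.17. The Syngr2 call ended without WT P32 pool 1a (−0.56) and the Syn2 call without any 1 WT P10, P28 or P32 pool other than P32 pool 1b (0.32 to 0.50). None of the 4 was called in Het, though Syn2 was without Het P10 pool 2b (0.50). Syp, synaptophysin, changed by −0.02 in Het and −0.13 in WT (adjusted p = 0.957 and 0.642).

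Rab3d and Rab3b, small GTPases of secretory vesicles, fell in both genotypes. Rab3d had 46.2, 57.8 and 57.5 in the Het P28 and P32 pools, against 126, 103, 136 and 104 at Het P10. WT values were 47.0, 69.3, 36.9 and 64.4 at P28 and P32, against 128, 150 and 143 at P10. The groups did not overlap in either genotype. The log2 change was −1.09 ± 0.37 in Het and −1.41 ± 0.36 in WT (limma adjusted p = 0.0237 and 0.00334). The Het call ended without Het P10 pool 2a (−1.02) or Het P28 pool 1a (−1.01), and with quantile normalization (−0.95, adjusted p = 0.0532). Rab3b fell by 0.65 in Het and 0.60 in WT, the WT call ending without WT P10 pool 2a (−0.49) or 2b (−0.52). Both Rab3b calls ended with a replicate block by title code (−0.37 in Het, −0.25 in WT). Rab3il1 fell by 0.54 in WT, a call lost without WT P10 pool 1b or 2a, WT P28 pool 1b or WT P32 pool 1a (−0.50 to −0.35). Rab3ip fell by 0.63 in Het on its dimmer probe set alone, a call lost without Het P10 pool 1a or 2b or any Het P28 or P32 pool (−0.65 to −0.46). Rab3a, the main Rab3 of brain, varied widely between pools and was not called in Het (−0.81) or WT (0.73).

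Pclo, which encodes the active zone scaffold piccolo, had 1154, 1137 and 906 in the Het P28 and P32 pools, against 483, 431, 402 and 486 at Het P10. In WT pools it had 788, 859, 933 and 689 at P28 and P32, against 445, 545 and 496 at P10. Every late value was higher than every P10 value of its genotype. The log2 rise was 1.18 ± 0.17 in Het and 0.72 ± 0.16 in WT (limma adjusted p = 6.93e-06 and 0.00101). Dnm1, the dynamin that cuts vesicles from the membrane, rose by 0.41 and 0.67 in Het and by 0.33 and 0.62 in WT on its brighter and dimmer probe set. The brighter one's WT call ended without WT P10 pool 1b or 2a, WT P28 pool 1a or WT P32 pool 1a (0.25 to 0.31). Snap91, a clathrin assembly protein, was not called in either genotype. Pools are bulk tissue, so fewer cells of a type and less RNA per cell cannot be told apart in any of these changes.

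Markers of other cell types changed over the same interval. All 7 tested oligodendrocyte markers rose in both genotypes, with a median log2 change of 4.19 in Het and 3.57 in WT. The summed intensity of the 8 measured ones was 8846 to 9277 in the late Het pools, against 672 to 848 at Het P10, and 7535 to 8619 in the late WT pools, against 947 to 1070 at WT P10. Of 7 immature neuron markers, 7 fell in Het and 6 in WT, their sum being 4365 to 4791 in late Het pools, against 9774 to 10197 at Het P10, and 4408 to 5298 in late WT pools, against 9205 to 9718 at WT P10. Astrocyte markers rose in 5 of 7 in each genotype, with 1 lower in Het (median 0.54 in Het, 0.69 in WT), and summed to 7701 to 7870 in late Het pools, against 5035 to 5544 at Het P10, and to 7961 to 9015 in late WT pools, against 5068 to 5154 at WT P10. Of 6 microglia markers 3 rose and 1 fell in Het, and 1 rose and 1 fell in WT. Their sum was 2004 to 2274 in late Het pools, against 1385 to 1627 at Het P10, and 1788 to 2149 in late WT pools, against 1299 to 1710 at WT P10. Of 5 endothelium markers 1 fell in Het and 2 fell in WT, with sums of 556 to 606 in late Het pools, against 820 to 875 at Het P10, and 396 to 610 in late WT pools, against 833 to 924 at WT P10. Of 3 choroid plexus markers 1 rose in each genotype, with sums of 88 to 4882 over all pools. Of the 9 neuron markers 2 rose and 3 fell in Het, and 3 rose and 3 fell in WT. None of these markers was below 1 in every pool of a group. Their part in the members' changes was not tested.

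Between P10 and P15, with both genotypes weighted equally, 22 members were called (39.3%), 18 higher and 4 lower. Over all tested probe sets 25.9% were called, with 12.5% higher and 13.4% lower. The members' median log2 change was 0.15, against −0.02 over all probe sets. Calls higher at P15 came from vesicle SNAREs (5 of 9 probe sets), synaptotagmins (4 of 8), disassembly genes (2 of 4), SNARE regulators (2 of 5) and Dnm1 on both probe sets. They also took in Syp, Snap25 and Stx4a. The counts for this step include Vamp1, which passed the brightness filter only through its levels from P15 to P20. The 4 lower were Rab3d (−0.91), Syt4 (−0.69), Rab33b (−0.27) and Stx7 (−0.21), of which the Stx7 call ended without Het P10 pool 1a, WT P10 pool 2a or WT P15 pool 1a or 1b (−0.20 to −0.18). Syt4 encodes a synaptotagmin that binds calcium poorly.

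Nsf had 1396, 1438, 1740 and 1212 in Het P15 pools, against 864, 685, 787 and 772 at Het P10. WT pools held 1466, 1365, 1582 and 1241 at P15, against 946, 958 and 750 at P10. Every P15 value was above every P10 value. The log2 rise was 0.78 ± 0.09 (limma adjusted p = 6.57e-07). Vamp1 had 63.6, 55.3, 45.6 and 98.9 in Het P15 pools and 64.3, 35.1, 77.6 and 81.4 in WT P15 pools, all above the P10 values given earlier. The log2 difference of Vamp1 was 2.67, or 1.15 with 32 added before the log, and since the filter was passed through these high groups, its size and test support nothing further. Syt2 (0.77), Stxbp3 (0.77), Cplx1 (0.67) and Syt1 (0.61) also rose, with adjusted p-values of 9.74e-04 or less. The rises of Syp and Vamp3 were not called with the Gapdh ratio in the model (both 0.27, adjusted p = 0.151 for Syp and 0.107 for Vamp3), nor were the fall of Stx7 (−0.15, adjusted p = 0.126) and the rise of the brighter Vamp2 probe set (0.10, adjusted p = 0.268). Those of Snap25 (0.27), Napb (0.27) and the brighter Vamp2 probe set (0.20) were not called without some single pools, Napb without WT P10 pool 2a (0.24). Snap25 was not called without Het P10 pool 1b or 2a, WT P10 pool 1b or 2a, Het P15 pool 2c or 2d, or WT P15 pool 1a or 1b (0.22 to 0.26). Vamp2 was not called without Het P10 pool 1a or 2b, WT P10 pool 1b, Het P15 pool 1c, 1d or 2d, or WT P15 pool 2c or 2d (0.16 to 0.20).

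Other cell types' markers moved over this step too. All 7 oligodendrocyte markers rose (median 3.30), with sums of 5138 to 9327 at Het P15, against 672 to 848 at Het P10, and 3276 to 6206 at WT P15, against 947 to 1070 at WT P10. Of 7 immature neuron markers 6 fell (median −0.998), with sums of 4575 to 6742 at Het P15, against 9774 to 10197 at Het P10, and 5113 to 7153 at WT P15, against 9205 to 9718 at WT P10. Of 6 microglia markers 5 rose (median 0.52), with sums of 1970 to 2297 at Het P15, against 1385 to 1627 at Het P10, and 1952 to 2257 at WT P15, against 1299 to 1710 at WT P10. Astrocyte markers rose in 3 and fell in 1 of 7, endothelium markers fell in 2 of 5, and choroid plexus markers rose in 3 of 3. None was below 1 in every pool of a group, and their part in the members' step was not tested.

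From P15 to P18, 2 members were called, Napb (0.38) and Snap25 (0.38), which is 3.57% against 3.84% of all probe sets. Neither call held without Het P18 pool 1b (Napb 0.29, Snap25 0.24), WT P18 pool 1c (Napb 0.43, Snap25 0.39) or WT P18 pool 1d (Napb 0.33, Snap25 0.38). Both also ended without Het P15 pool 1d (0.36 each) or WT P15 pool 2d (0.33 each), and that of Snap25 without Het P15 pool 1c, WT P15 pool 2c, WT P20 pool 2a or 2b or Het P28 pool 1b (0.36 to 0.38). The count was 17 without Het P18 pool 1a. From P18 to P20 limma called 0 of 56 (3 at an unadjusted p below 0.05, against 0.0134% of all called), 0 without Het P18 pool 1b and 9 without Het P18 pool 1a. The 3 smallest p-values were those of Syp (0.54), Syt1 (0.36) and Stx2 (0.61), and without Het P18 pool 1a Syp (0.87) and Stx2 (1.18) were called. From P28 to P32 none was called (0 of 56, 0 at an unadjusted p below 0.05, against 0.0134% of all called).

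Between P20 and P28, 13 members were called (23.2%), 4 higher and 9 lower, against 8.06% of all tested probe sets, with 3.06% higher and 5% lower. The lower ones were Vamp1 (−1.72), the dimmer Vamp2 probe set (−1.32), Syp (−1.05), Syt1 (−0.99), Cplx1 (−0.92), Syt5 (−0.70), Stxbp2 (−0.64), Syt11 (−0.62) and Stx1a (−0.60). The higher ones were Cplx2 (0.82), Pclo (0.64), Vamp4 (0.37) and Rab33b (0.35). The 2 complexins thus went in opposite directions. For Vamp2, Stxbp2, Vamp4 and Rab33b the other tested probe set was not called. The brighter one of Vamp2 gave −0.035 (limma adjusted p = 0.856). The dimmer ones gave −0.11 for Stxbp2 (0.839), 0.265 for Vamp4 (0.298) and 0.09 for Rab33b (0.703). Vamp1 had passed the brightness filter only through P15 to P20, and 3 of its 4 P28 values (24.5, 20.6 and 23.1) lay below the filter's cut of 30.8. Its fall is therefore a description (−1.02 with 32 added before the log), though the counts for this step include Vamp1. The count was 4 without Het P28 pool 1a, 7 without Het P20 pool 1b and 8 without WT P20 pool 2a or 2b. The calls of Cplx1 (−0.71) and Vamp1 (−1.54) ended without Het P28 pool 1a, and that of Vamp1 (−1.62) also without Het P20 pool 1b. Of 7 astrocyte markers 3 rose over this step (median 0.30), with sums of 7701 to 7870 at Het P28, against 7171 to 7865 at Het P20, and 7961 to 8689 at WT P28, against 5483 to 5940 at WT P20. Of the other lists, neurons, oligodendrocytes and immature neurons had 1 marker each that fell, and microglia, endothelium and choroid plexus had none called. The part of these cells was not tested.

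Vamp1, Vamp2 (dimmer probe set), Syp, Syt1, Syt11 and Cplx1 both rose from P10 to P15 and fell from P20 to P28. These 6 probe sets make up 33.3% of the 18 risers and 66.7% of the 9 that fell. Vamp1 is among them by description only, since it passed the brightness filter through its high groups. The brighter Vamp2 probe set rose in the first step but was not called in the second. How many of all tested probe sets took this course was not computed, so it is not shown to be particular to the members. Syp, which encodes an abundant protein of the vesicle membrane, had 415, 402, 416 and 390 in Het pools at P10, 543 and 750 at P20, and 364 and 397 at P28. In WT pools Syp had 401, 416 and 423 at P10, 834 and 1009 at P20, and 324 and 397 at P28. The P20 values were above those of P10 and P28 in both genotypes. Syt1 had 662, 521, 750 and 980 in Het pools at P10, 931 and 1148 at P20, and 665 and 778 at P28. In WT pools Syt1 had 721, 645 and 683 at P10, 1900 and 1821 at P20, and 748 and 619 at P28. The P20 values of Syt1 stood above those of P10 and P28, except that 1 Het P10 pool (980) lay above 1 Het P20 pool (931). Cplx1, the complexin that clamps and promotes fusion, had 401, 477, 537 and 586 in Het pools at P10, 532 and 596 at P20, and 346 and 624 at P28. In WT pools Cplx1 had 360, 577 and 477 at P10, 910 and 979 at P20, and 310 and 331 at P28. Here the Het groups overlapped and the WT P20 values stood apart.

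**Figure D3:**
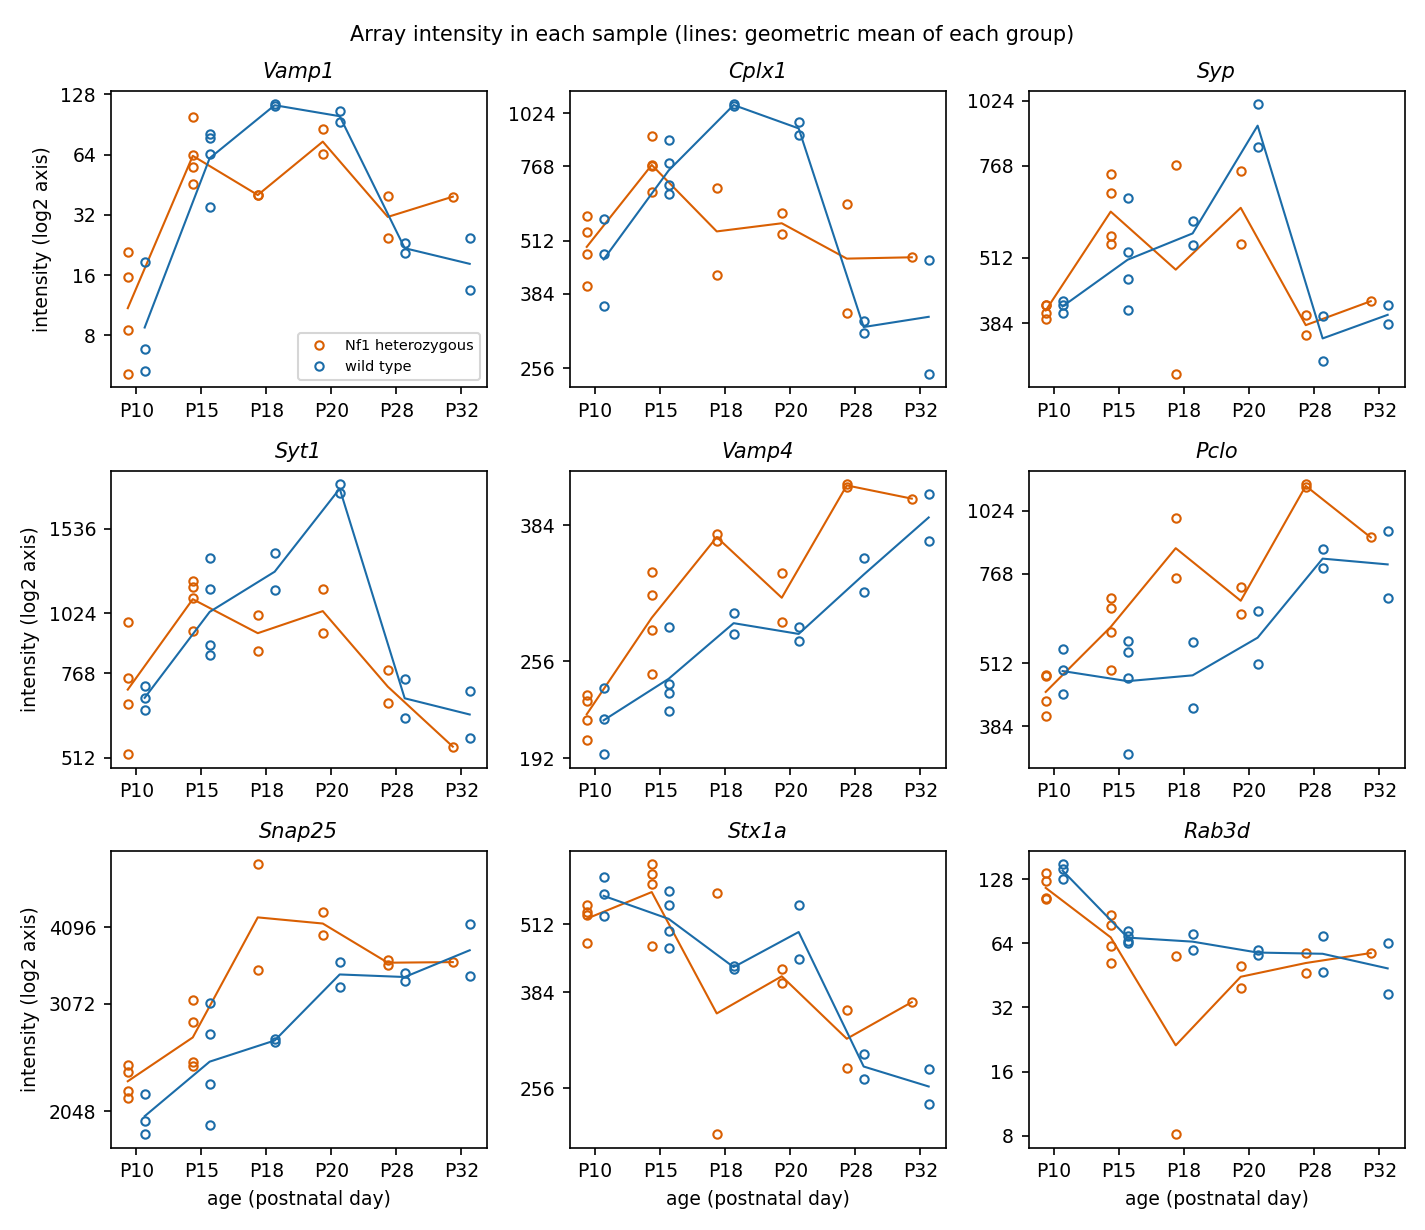
Intensity (log2 axis) of 9 genes in each pool by age, Het in orange to the left of WT in blue, with lines through the geometric group means. The WT P20 values of Syt1 (1900 and 1821) and Syp (834 and 1009) and the WT P18 and P20 values of Cplx1 are the highest of their genes, and the Het P18 pools differ widely for Syp, Stx1a and Rab3d.

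Within genotypes, the step from P20 to P28 was −0.28 ± 0.27 in Het and −1.56 ± 0.27 in WT (SE) for Cplx1. It was −0.52 ± 0.22 in Het and −1.45 ± 0.22 in WT for Syt1, and −0.75 ± 0.26 in Het and −1.35 ± 0.26 in WT for Syp. For Vamp1 it was −1.25 ± 0.56 in Het and −2.19 ± 0.56 in WT. That is a description only, since Vamp1 passed the brightness filter through its levels from P15 to P20. Cplx2 had nearly equal steps, 0.82 in Het and 0.82 in WT. The difference of the steps, Het minus WT, was 1.28 for Cplx1 (95% interval 0.49 to 2.07, limma adjusted p = 0.11), 0.93 for Syt1 (0.29 to 1.57, adjusted p = 0.147) and 0.61 for Syp (−0.16 to 1.37, adjusted p = 0.474). Limma called 0 of 56 members for it, 8 having an unadjusted p below 0.05, and 0.577% of all probe sets. Array weights gave 2 calls, and leaving out Het P18 pool 1a, pool 1b or both gave 1. The WT P20 pools carry a title number unlike that of the Het P20 pools and all P28 pools. The WT step, and its difference from the Het step, cannot be told apart from this number. The Gapdh log2 ratio was 0.00 and 0.17 at Het P20 and −0.14 and 0.03 at Het P28, and −0.33 and −0.30 at WT P20 and 0.05 and 0.15 at WT P28. With that ratio in the model, 9 of the 13 calls for the averaged step held and all 13 kept their sign.

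Of the 6 genes called higher from P10 to P15 and lower from P20 to P28, 4 had 1 start site in the RefSeq promoter table (GRCm38.p6). The 150 bases before it are shown. The genes were picked by these calls, Vamp1 by description only, and shared control of them was not tested. Capitals mark the GC box GGGCGG or its reverse complement CCGCCC, a short motif bound by factors of the Sp family.
Cplx1 (chr5:108550028-108550177, minus strand): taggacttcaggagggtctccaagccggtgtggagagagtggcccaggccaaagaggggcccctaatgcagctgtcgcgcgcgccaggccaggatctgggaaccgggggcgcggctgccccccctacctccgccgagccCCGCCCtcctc
Syp (chrX:7638430-7638579, plus strand): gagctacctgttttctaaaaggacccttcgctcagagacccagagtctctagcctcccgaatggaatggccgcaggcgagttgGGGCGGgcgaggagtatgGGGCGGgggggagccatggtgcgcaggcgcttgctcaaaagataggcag
Syt11 (chr3:88772600-88772749, minus strand): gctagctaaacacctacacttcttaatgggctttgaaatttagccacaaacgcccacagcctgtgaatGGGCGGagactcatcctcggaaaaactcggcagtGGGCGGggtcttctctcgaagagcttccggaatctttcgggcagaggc
Vamp1 (chr6:125215431-125215580, plus strand): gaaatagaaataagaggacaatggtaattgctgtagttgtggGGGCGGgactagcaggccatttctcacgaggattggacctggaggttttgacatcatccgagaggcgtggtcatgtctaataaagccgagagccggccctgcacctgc
The start used for Syt11 lies inside the gene's annotated span (chr3:88744699-88775159), while the other 3 starts are at the edge of theirs. All 4 held the motif, Syp and Syt11 with 2 copies each and Cplx1 and Vamp1 with 1 each. In the 250 bases before the start, on either strand, it was found in 39 of 65 member promoters (60%, from 48 of the 57 genes) and in 32.7% of all 32851 promoters in the table. Those 32851 promoters were not limited to genes on the array, so the shares do not come from matched sets. A match is a description of letters and not a site shown to be bound.

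The effect of the Nf1 genotype over all ages was tested in a model with age and genotype. Limma called no member (0 of 56, 6 at an unadjusted p below 0.05) and no probe set at all (0%). The differences, Het minus WT, ran from −0.33 to 0.29 on the log2 scale. The smallest p-values belonged to Vamp4 (0.21 ± 0.06, 95% interval 0.09 to 0.32, adjusted p = 0.268), Pclo (0.29 ± 0.09, adjusted p = 0.323) and Snap25 (0.21 ± 0.07, adjusted p = 0.342). None passed the threshold.

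At single ages limma called 0 of 56 members at P10 (4 at an unadjusted p below 0.05, 0.0403% of all probe sets called), 0 at P15 (4, and 0%), 0 at P28 (3, and 0.0134%) and 0 at P32 (5, and 0.0537%). The smallest p-values were those of Stx8 at P10 (0.62, with the WT values below the filter's cut), Vamp4 at P15 (0.26) and Syngr2 at P28 (0.84) and P32 (0.86). At P20 the only call was Syt1, with 931 and 1148 in Het pools against 1900 and 1821 in WT pools, a log2 difference of −0.85 (adjusted p = 0.0443). That is 1.79% of members against 2.27% of all. The Het and WT P20 pools carry different numbers in their titles, so genotype at P20 cannot be told apart from that number. The call ended when any of the 4 P20 pools was left out (−0.998 to −0.70), and also without any 1 of the WT P10 or Het P28 pools (−0.85). With the Gapdh ratio in the model it was not made (−0.90, adjusted p = 0.13).

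At P18, 18 members were called (32.1%), 8 higher and 10 lower in Het, against 22.8% of all tested probe sets, with 11% higher and 11.8% lower. The lower ones were Stx2, Rab3d, the dimmer Vamp2 probe set, Syt11, Syngr2, Cplx1, Rab34, Vamp8, Syngr1 and Syt3. The higher ones were Syt4, Napb, Pclo, Stx12, Snap25, Snap91, Stx7 and Rab33b. Other tested probe sets of these genes were not called. The brighter one of Vamp2 gave −0.24 (limma adjusted p = 0.174). The dimmer ones gave −0.56 for Vamp8 (0.14), −0.05 for Syt3 (0.925), 0.05 for Napb (0.928) and −0.10 for Rab33b (0.685). Stx2, a syntaxin of the plasma membrane, had 152 and 31.7 in Het pools 1a and 1b, against 219 and 208 in WT pools, a log2 difference of −1.62 ± 0.40. Rab3d had 55.5 and 8.12 in Het pools 1a and 1b, against 71 and 59.6 in WT pools. Most of both differences lay in pool 1b. Syt4 had 165 and 230 in Het pools 1a and 1b, against 84.4 and 105 in WT pools, and Napb had 791 and 1007 in Het pools, against 460 and 534 in WT pools. On these probe sets both genes were higher in both Het pools, with pool 1b farther away, unlike the dimmer Napb probe set.

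Without Het P18 pool 1b, 2 of the 18 calls held, all 18 kept their sign, and their median absolute log2 difference was 0.50, against 0.90 with both pools. Stx2 was then −0.49 (adjusted p = 0.371), Rab3d −0.23 (0.733), the dimmer Vamp2 probe set −0.68 (0.291), Syt11 −0.51 (0.152), Syngr2 −0.46 (0.397) and Syt4 0.81 (0.109). Without pool 1a all 18 held, with a median of 1.22. Without WT P18 pool 1d the count was 6; then the calls of Rab3d (−1.74), Vamp2 (−1.39) and Syngr2 (−0.97) were lost, and without WT P18 pool 1c those of Rab3d (−1.49) and Syngr2 (−1.02). With the Gapdh ratio in the model 0 of the 18 held, 17 kept their sign and the median was 0.48. Among 6 tested microglia markers 4 were lower in Het at P18, their sum over 7 measured genes being 1805 to 2150 in Het pools against 2473 to 2495 in WT pools. Of 7 astrocyte markers 2 were higher (median 0.32), with sums of 6884 to 8997 in Het pools against 5981 to 6383 in WT pools. Of 5 endothelium markers 2 were higher, with sums of 591 to 648 in Het pools against 590 in both WT pools. Of 7 immature neuron markers 2 were higher and 1 lower, with sums of 5112 to 5572 in Het pools against 4251 to 5098 in WT pools. Of 9 neuron markers 2 were lower, with sums of 9281 to 10696 in Het pools against 10889 to 10932 in WT pools. Of 7 hippocampal markers 2 were higher, of 3 choroid plexus markers 1 was lower, and no oligodendrocyte marker of 7 was called. None was below 1 in every pool of a group, and their part was not tested.

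**Figure D4:**
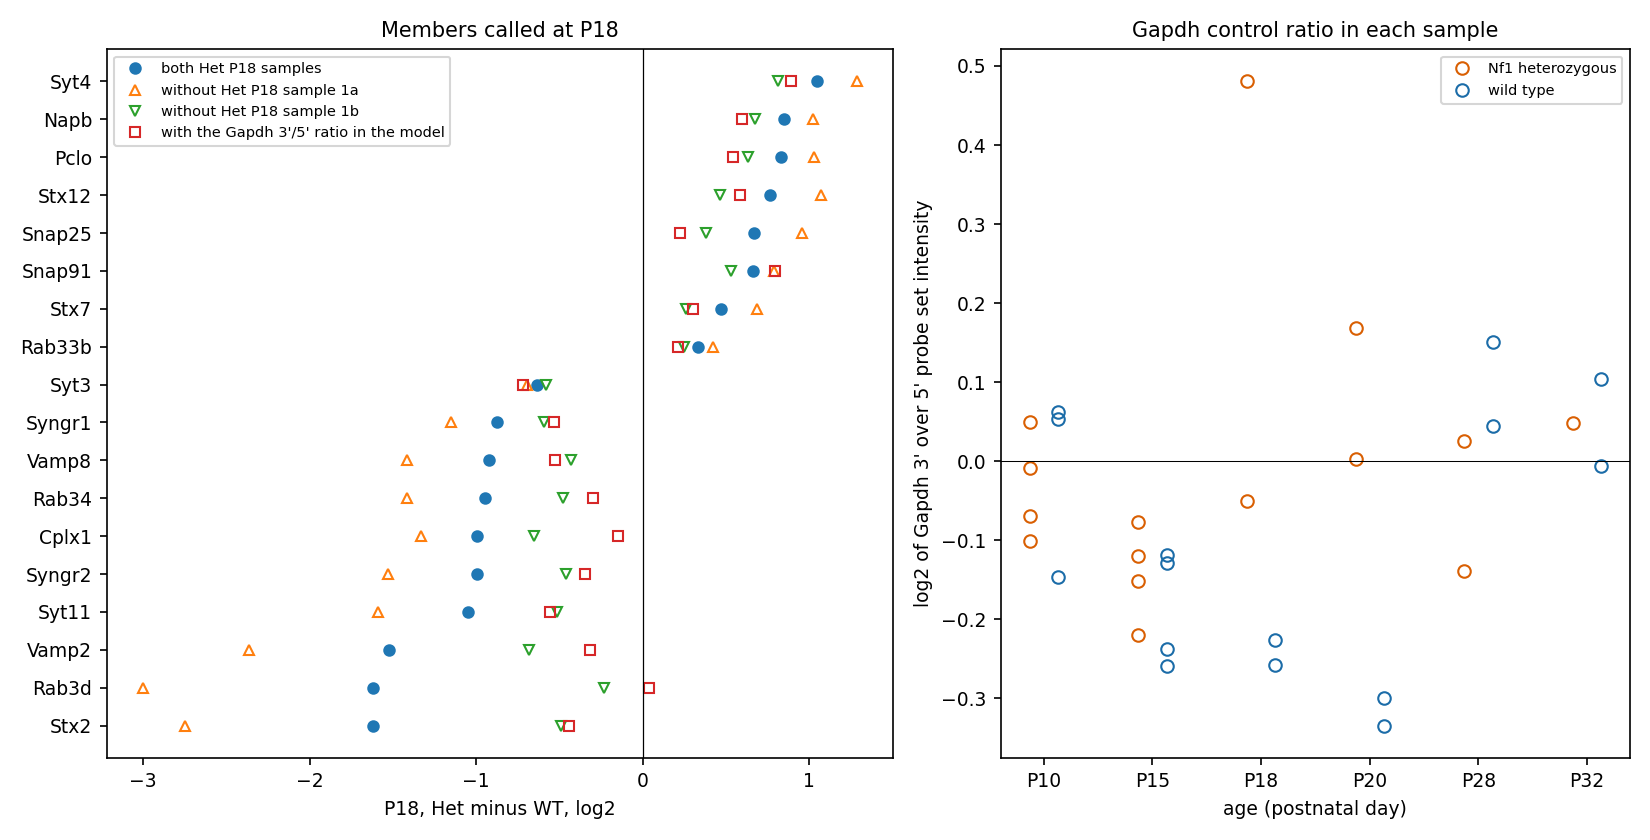
Left, log2 difference at P18, Het minus WT, for the 18 called members with both Het P18 pools, without pool 1a, without pool 1b and with the Gapdh ratio in the model. Right, log2 of the 3′ over 5′ Gapdh intensity in each pool by age, Het left of WT; Het P18 pool 1b, at 0.48, is the highest, and differences without it are closer to 0.

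The genotype difference varied with age by limma's interaction F test in 7 members (12.5%), against 6.49% of all. These were Cplx1, Napb, Stx12, Syngr2, Syt11, Syt3 and the dimmer Vamp2 probe set, and all 7 were also called at P18. For Napb and Syt3 this was the brighter probe set, and the other tested probe sets of Napb, Syt3 and Vamp2 were not called. The count was 0 without Het P18 pool 1b, WT P18 pool 1c or WT P18 pool 1d, and 19 without Het P18 pool 1a. Leaving out 1 pool of another age ended the calls of Cplx1, Napb, Syt3 and Syt11 in some cases, with adjusted p-values of at most 0.0782 for Cplx1, 0.0638 for Napb, 0.0679 for Syt3 and 0.0596 for Syt11. The count was also 0 with the Gapdh ratio in the model.

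Other genes of the same machinery were read from lists that leave out the members. Over all tested probe sets 36.5% were called with maturation in Het (17% higher, 19.5% lower). In WT the share was 38.2% (18% higher, 20.1% lower). With so few genes in each list, no list is shown to differ from these shares. Of 9 tested active zone and docking genes none rose and 3 fell in each genotype with maturation. Ppfia4, a liprin, fell by 0.90 in Het and 0.78 in WT, and Apba2, an adaptor of the presynaptic membrane, fell by 0.62 in Het and 0.75 in WT. Of 10 other SNARE genes 1 rose and 2 fell in each genotype, Sec22b rising by 0.63 in Het and 0.54 in WT and Ykt6 falling by 0.56 in Het and 0.66 in WT. Of 18 vesicle endocytosis genes 5 rose and 3 fell in Het, and 5 rose and 6 fell in WT. The adaptor gene Ap2a2 fell by 1.02 in Het and 1.82 in WT, and Sh3gl2, which encodes endophilin A, rose by 0.62 in Het and 0.65 in WT. Of 13 postsynaptic genes 1 rose and 2 fell in Het, and 2 rose and 2 fell in WT, with the AMPA receptor subunit gene Gria2 higher in both (0.66 in Het, 0.67 in WT) and the scaffold gene Dlg4 lower (−0.54 in Het, −0.65 in WT). Between P10 and P15, 8 of the 18 endocytosis genes rose and none fell, where 12.5% of all probe sets rose and 13.4% fell. In the other lists, 2 rose and 2 fell of the 9 active zone and docking genes over this step. Of the 10 other SNARE genes 2 rose, and of the 13 postsynaptic genes 3 rose, with none lower in either list. The 1 tested vesicular transmitter transporter gene was not called.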

How the data were processed

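Each sample was hybridised to 1 single-colour array. The authors deposited 1 linear intensity per probe set; the values show that arrays were scaled to an equal mean after trimming 2% at each end, and no source used here names the software. Intensities were floored at 1 and log2-transformed without further normalization. Control probe sets (66) and, of the others, the lowest 40% by mean log2 (4969, below an intensity of 30.8) were left out. Symbols came from the platform annotation, updated through RefSeq (GRCm38.p6). limma 3.58.1 in R 4.3.3 fitted all 30 samples with an intensity trend; an additive model gave the age test and the overall genotype effect, and all else from 1 mean per genotype and age. P-values are two-sided, adjusted by Benjamini-Hochberg over 7453 probe sets. The number of arrays limits the precision. The computations were tested on simulated data.

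Members, lists, tests and the rule for named genes were chosen with earlier results of these data known. The rule named a set of well-known genes, up to 12 called members with the largest rise and 12 with the largest fall in maturation, and up to 6 called members (or the 3 with the smallest p) in each other comparison. The brightest probe set describes a gene, and others are given beside it. Text that names more members than this chose them after their values were seen, as was the comparison of the P20 to P28 step between genotypes. For title codes shared by both genotypes at the same age, the correlations of deviations from group means ran from −0.18 to 0.13. Samples were therefore not treated as pairs. These were few pairs, at P10, P15 and P28 only, so pairing by title code is not excluded.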

Additional observations from a re-analysis of the deposited data

Results flagged for a closer look

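In 168 sets of 4 pools (56 members in 3 groups of 4), 9 had a pool that stood apart by Dixon's test at 95%; chance gives about 1 in 20. The log2 intensities of these pools were 5.85 for Rab31 (Het P15 pool 1c, second probe set), 8.19 for Rab33b (Het P15 pool 2c), 9.86 for Snap91 (Het P15 pool 1c), 11.40 for the brighter Vamp2 probe set (Het P15 pool 2c), 6.88 for Stx4a (Het P10 pool 1a), 8.12 for Syt3 (Het P10 pool 1a), 7.26 for Rab3ip (WT P15 pool 2c), 9.33 for Stx12 (WT P15 pool 2c) and 6.81 for Stx6 (WT P15 pool 2d).

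The genotype difference varied with age in 7 members by limma's F test over all 30 samples. The adjusted p was 0.0168 for Stx12, 0.0254 for Syt3, 0.0274 for Syngr2 and 0.0328 for Syt11. It was 0.0381 for Napb, 0.041 for Cplx1 and 0.0413 for the dimmer Vamp2 probe set. The values for Syt3 and Napb are those of the brighter probe set. None of these calls held without Het P18 pool 1b.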

How the results depend on the processing

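Counts of called members stayed within 1.5 times of those reported except as follows. The P10 to P15 step gave 13 with a replicate block by title code. The P15 to P18 step gave 1 with no filter and 0 with array weights, either replicate block, the Gapdh ratio or without both Het P18 pools. The P18 to P20 step gave 1 without both Het P18 pools, and the P20 to P28 step 5 with the title code block. Its difference between genotypes gave 2 with array weights and 1 without both Het P18 pools. The interaction gave 4 with no intensity trend or array weights, and 0 with the title code block, the Gapdh ratio or without both Het P18 pools. Genotype at P18 gave 4 with array weights, 1 with the title code block and 0 with the Gapdh ratio. Genotype at P20 gave 2 with 32 added, the lowest 60% left out, quantile normalization, array weights or without both Het P18 pools, and 0 with no filter, no trend, either replicate block or the Gapdh ratio. The causes were not tested.

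Leaving out 1 pool at a time, counts ran from 30 to 40 for age, 17 to 26 for maturation in Het, 17 to 28 for maturation in WT, 19 to 22 for P10 to P15, 0 to 17 for P15 to P18, 0 to 9 for P18 to P20, 4 to 15 for P20 to P28, 0 to 1 for its difference between genotypes, 0 to 19 for the interaction, 2 to 25 for genotype at P18 and 0 to 2 at P20. The other counts were 0 throughout. Without the Het P32 pool, maturation in Het used P28 alone and genotype at P32 had no value; without both Het P18 pools, P18 steps came from WT alone.

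Calls of members also ended by quantile normalization were those in Het maturation of Rab3d, Rab3ip and both Stxbp2 probe sets (−0.95 to −0.40) and in WT maturation of Rab3il1 (−0.40) and Syn2 (0.37). Some values changed sign. With the title code block, maturation was 0.20 for Cplx1 in Het and 0.12 for Syt1 in WT, the P10 to P15 step 0.25 for Rab3b, 0.028 for Cplx2 and −0.056 for the brighter Vamp2 probe set, and the P18 to P20 step −0.083 for Syt1. With the Gapdh ratio the P10 to P15 step was −0.26 for Stx1a and the P18 genotype difference 0.04 for Rab3d. Without both Het P18 pools the P15 to P18 step was −0.00 for Napb and the P18 to P20 step −0.035 for Stx2. Without the Het P32 pool maturation in Het was 0.021 for Syt1, whose values with 1 pool left out ran from −0.336 to 0.021.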
